A study of Mus musculus with 9 samples.

Results

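Immunoglobulin heavy and light chain genes were read out in regulatory T (Treg) cells from mice in which CBP or p300 had been deleted, paralogous enzymes that acetylate histones and other proteins. An antibody joins heavy chains to light chains of the kappa or lambda type. The variable end of each chain is assembled by recombination of gene segments in developing B cells, and the constant end of the heavy chain sets the class, such as IgM, IgG or IgA. B cells carry these chains on their surface as the antigen receptor, and plasma cells, their descendants, secrete them as antibody in very large amounts. T cells rearrange T cell receptor genes instead and are not a source of antibody, so immunoglobulin transcripts are not part of the known Treg programme. The genes were taken by symbol from the array annotation: 10 immunoglobulin symbols, read by 30 of the 22626 probe sets tested. They comprise the heavy chain constant genes Igha, Ighm and Ighg3, the kappa locus entry Igk, the kappa variable entries Igk-V21, Igkv4-68, Igkv4-72, Igkv6-14 and Igkv19-93, and the lambda variable gene Iglv1.

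Treg cells had been enriched with magnets as CD4+CD25+ cells from C57Bl/6 mice, and each of 3 groups had 3 arrays from independent samples. In the labels one group is fl-CBP/Foxp3cre, in which floxed CBP is removed by a Cre recombinase driven from Foxp3, and the other is fl-p300/Foxp3cre, built in the same way for p300. Control mice are labelled Foxp3cre, and elsewhere wild type; if the controls carry no Cre, a difference from them also holds the effect of the Foxp3cre allele. Cre driven from Foxp3 is meant to act in Foxp3-expressing cells and not in other cells that came through the separation. Whether CBP or p300 was also lost in those other cells was not tested. The age and sex of the mice, and whether a sample pooled animals, are not given in the sources used here.

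All levels are log2 values from Affymetrix 3' arrays, on which a probe set is a group of short probes read as one value. The array medians lay between 5.49 and 5.59. T cell identity was visible on all arrays, with Cd3e of the T cell receptor complex at group means of 11.44 to 11.65, and Il2ra, which encodes CD25, at 9.05 to 9.29. Control samples had Foxp3 at 9.60 ± 0.14 (SD, n = 3), against 2.87 ± 0.12 after CBP deletion and 2.95 ± 0.32 after p300 deletion, at least 55.7-fold lower in each. The labels name Foxp3cre for all 3 groups, yet this reading is high in controls alone, so it bears on whether the controls carry the same Foxp3 allele; in every difference from control, the deletion and the allele cannot be told apart on these data. Crebbp, the gene of CBP, read 7.53 ± 0.16, 7.20 ± 0.13 and 7.56 ± 0.10 in the same order, and its difference between CBP-deleted and control samples did not pass the test (log2 -0.33, adjusted p = 0.152). Where its probes lie relative to the floxed part is not given, so this reading does not check the deletion.

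The scale has 2 ends at which a value is only a bound. A group mean at or under 3.80, the highest reading of the brightest Xist probe set on any array, was taken as the bottom, and a mean within 0.5 of the highest value in the table, 14.10, as the top. Of the 30 immunoglobulin probe sets, 6 were at the bottom in all 3 groups and 24 rose above it in at least 1 group. At the top were 1 probe set in controls, none in CBP-deleted samples and 3 in p300-deleted samples. A fold against a group at either end is given as "at least". The arrays share probe sets among near-identical genes: 7 of the 30 carry the suffix _x_at and 2 the suffix _s_at, which mark probes that can read several transcripts. Variable segments resemble each other closely, so the gene name of such a probe set is uncertain.

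**Figure D1:**
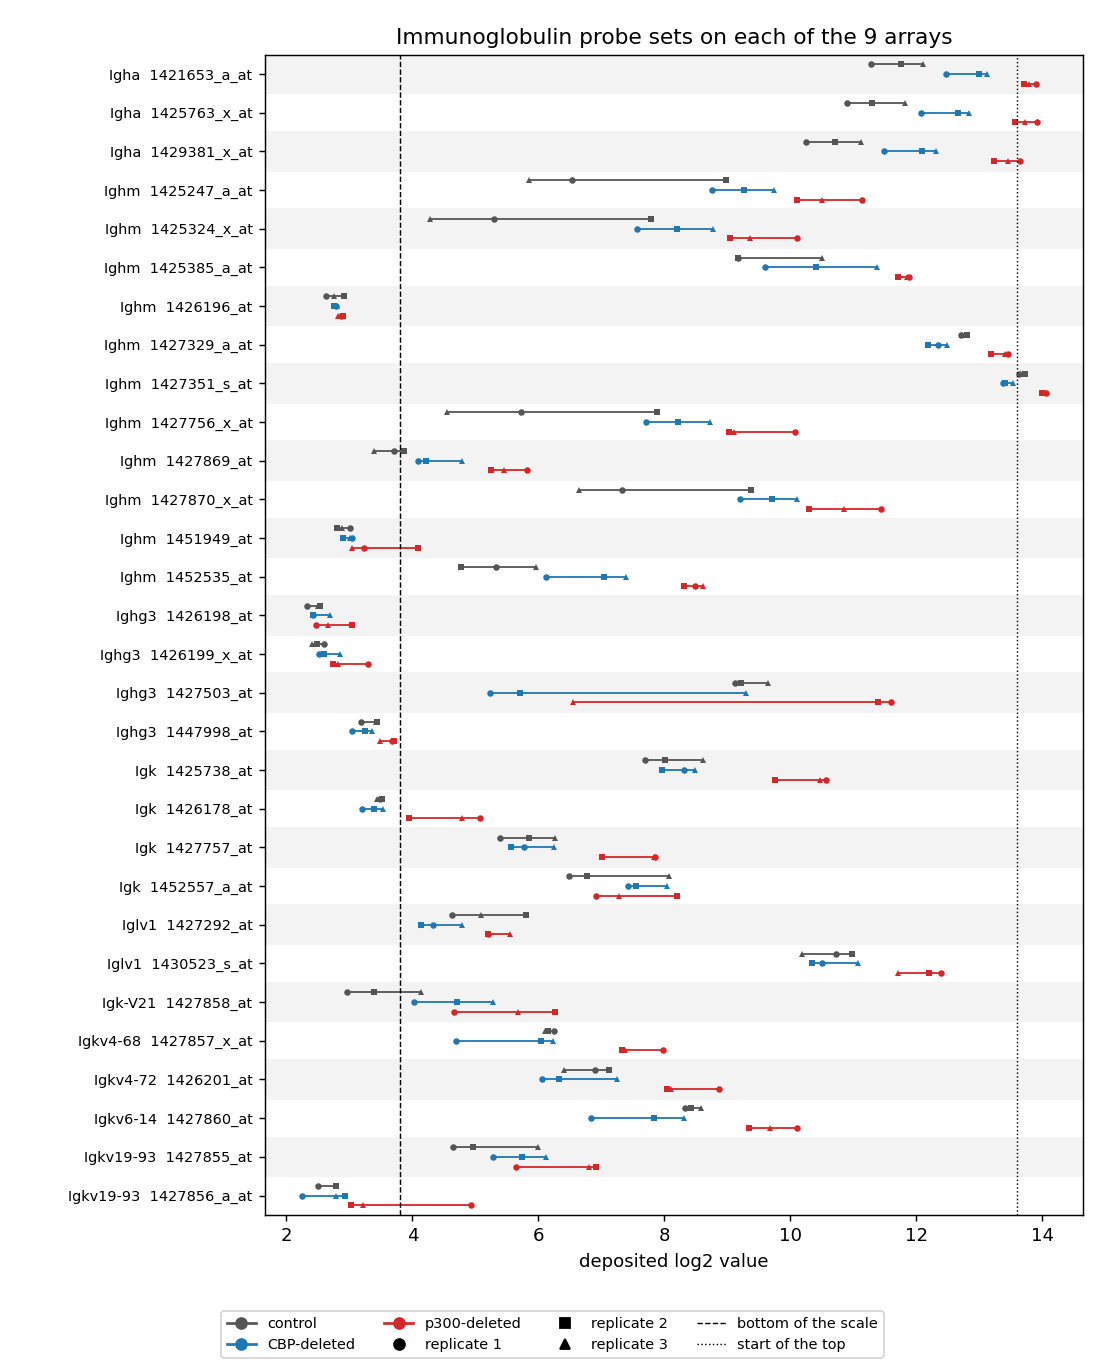
Log2 level of each of the 30 immunoglobulin probe sets on each of the 9 arrays, 1 row per probe set. Grey marks are control, blue CBP-deleted and red p300-deleted arrays, with circles, squares and triangles for replicates 1, 2 and 3; the dashed line at 3.80 is the bottom of the scale and the dotted line at 13.60 the start of the top. The red marks lie to the right of all grey marks in 24 of the 30 rows.

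Immunoglobulin transcripts were higher in p300-deleted than in control samples. With limma, 18 of the 30 probe sets rose and none fell (adjusted p below 0.05), while of all probe sets 2.62% changed, 1.45% up and 1.17% down. The 18 include all 3 Igha probe sets, 9 of 11 for Ighm, 3 of 4 for Igk, 1 of 2 for Iglv1, and those of Igkv4-72 and Igk-V21. The median difference of the 30 was log2 1.43, against -0.01 over all 22626 probe sets. All 30 fitted differences were positive, against 10585 of the 22626. In 24 of the 30 the p300-deleted arrays were above every control array, against 9.26% of all probe sets. Among the 24 probe sets that rose above the bottom in at least 1 group, this held in 20. In bulk samples more cells of a type and more RNA per cell cannot be told apart. The count of 18 was 9 without p300-deleted replicate 1, without p300-deleted replicate 2 or without control replicate 1, and 11 with robust moderation. The 18S ribosomal RNA probe sets read 5.82, 6.20 and 8.88 on the control arrays, 7.39, 7.999 and 7.85 on the CBP-deleted and 7.88, 9.62 and 8.07 on the p300-deleted arrays, and with their mean as a covariate the count was 12: Ighm 1425385_a_at and 1427351_s_at, Igk 1426178_at and 1427757_at, Igkv4-72 and Igk-V21 did not pass (adjusted p 0.0540 to 0.136). Robust moderation lost 7 calls, those of Igkv4-72, Igk-V21 and 5 Ighm probe sets, and a fit of only the 6 arrays compared lost 6 (adjusted p 0.0593 to 0.0907 and 0.0538 to 0.0873). Of the 18 calls, 7 held in every alternative tried, namely the 3 of Igha, 3 of Ighm and 1 of Igk.

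CBP-deleted samples showed a mixed picture. Against the same 3 controls, 6 of the 30 probe sets were called, where 2.5% of all were. Those that rose were all 3 of Igha and 1 of Ighm, against 1.26% of all probe sets. Those that fell were the 2 brightest of Ighm, against 1.25% of all. The median difference was log2 0.12, against -0.02 over all probe sets, and CBP-deleted arrays lay above every control array in 5 probe sets and below in 3, against 10.3% and 12.6% of all probe sets. None of the 6 calls held in every alternative: the count was 0 without CBP-deleted replicate 2, without CBP-deleted replicate 3 or without control replicate 1, and also 0 when only the 6 arrays compared were fitted (adjusted p 0.0562 to 0.103). When p300-deleted replicate 3, which enters only the shared variance, was left out, 3 were called.

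Set directly against each other, the knockouts differed in 14 of the 30 probe sets, each lower in CBP-deleted samples; of all probe sets 3.35% differed, 1.25% lower and 2.1% higher there. The median of the CBP-deleted minus p300-deleted difference was log2 -1.19, against -0.02 over all probe sets. CBP-deleted arrays were all below the p300-deleted arrays in 23 of the 30, against 12.9% of all probe sets. This held in 20 of the 24 probe sets above the bottom. The count was 6 without CBP-deleted replicate 2 and 8 without p300-deleted replicate 1, and 5 of the 14 calls held in every alternative. Among the 24 probe sets above the bottom, the group means ran p300-deleted, CBP-deleted, control in 15, and p300-deleted, control, CBP-deleted in 8. The exception was 1 Igk probe set, with CBP-deleted samples highest.

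**Figure D2:**
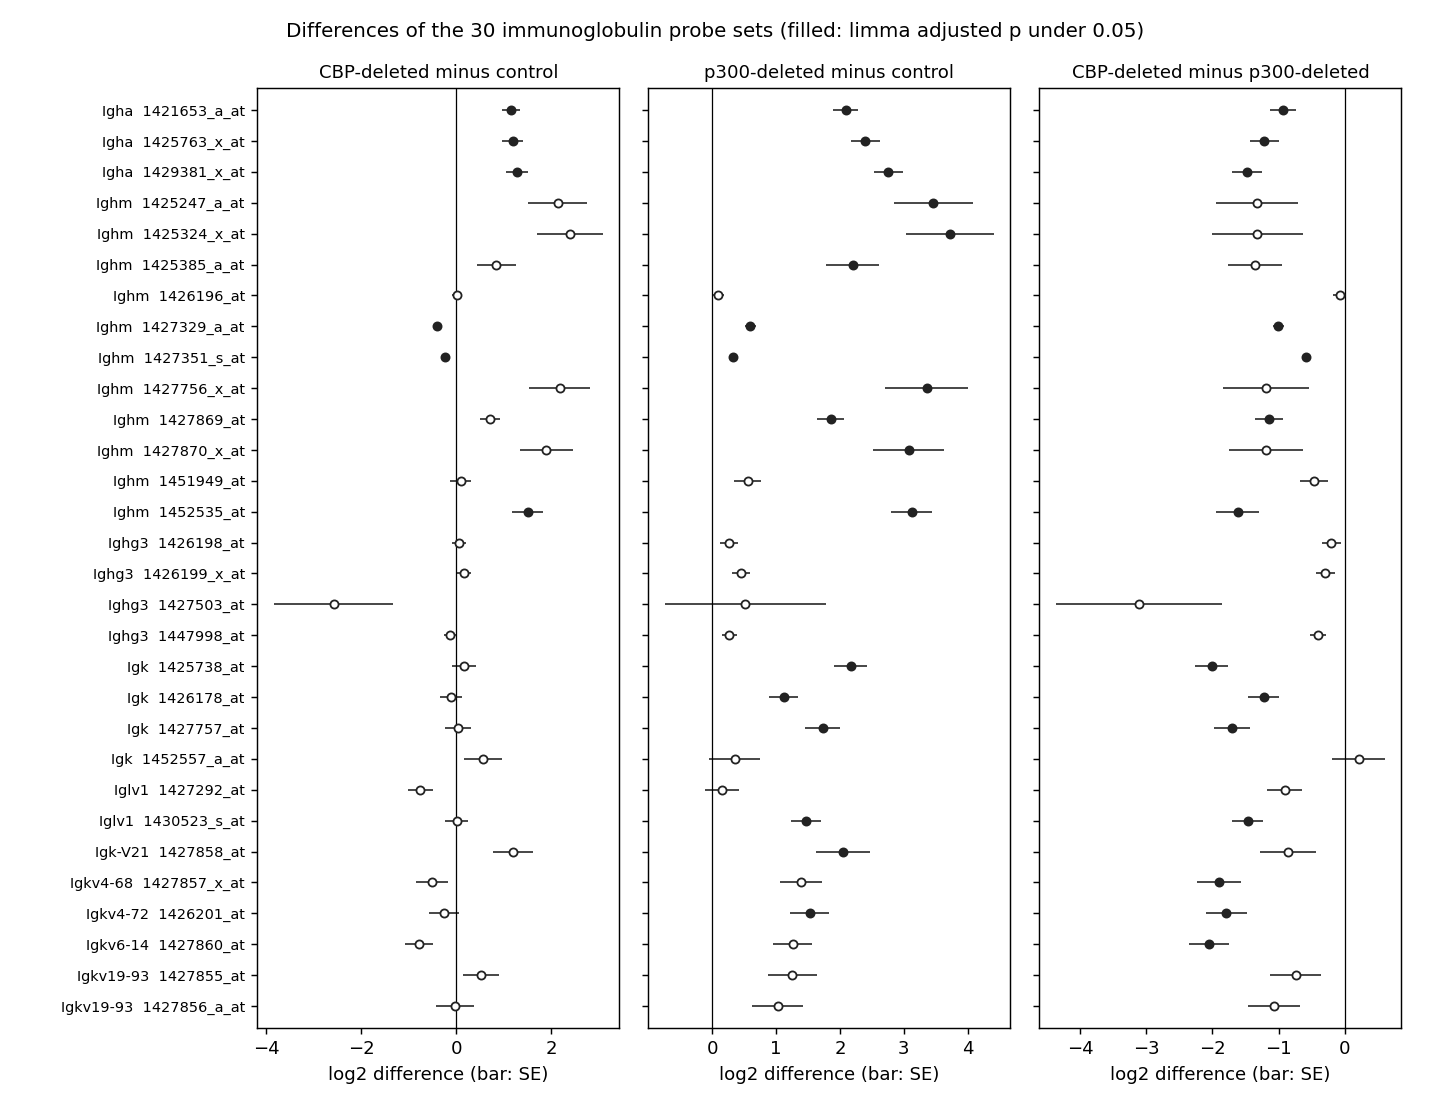
Log2 difference of each immunoglobulin probe set with its standard error from the limma fit, in panels for CBP-deleted minus control, p300-deleted minus control and CBP-deleted minus p300-deleted. Filled points passed an adjusted p of 0.05. The filled points number 6, 18 and 14 in the 3 panels; those of the second panel are all to the right of 0 and those of the third all to the left.

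Igha encodes the constant region of IgA, the antibody class of mucosal surfaces. Its brightest probe set (1421653_a_at) read 11.28, 11.75 and 12.11 on control replicates 1, 2 and 3, 12.47, 12.99 and 13.13 on the CBP-deleted arrays, and 13.90, 13.72 and 13.80 on the p300-deleted arrays. The 3 groups did not overlap, with control arrays lowest and p300-deleted arrays highest. The p300-deleted mean, 13.80 ± 0.09 (SD, n = 3), lies at the top of the scale. Igha was 2.22-fold higher in CBP-deleted than in control samples (log2 1.15, SE 0.19, adjusted p = 0.0177), and at least 4.25-fold higher in p300-deleted samples (log2 2.09, SE 0.19, adjusted p = 0.000676). The direct comparison also passed, with Igha at least 1.92-fold lower in CBP-deleted than in p300-deleted samples (log2 -0.94, SE 0.19, adjusted p = 0.0256).

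A further Igha probe set (1429381_x_at) stayed below the top on the group means and so gives folds that are not bounds. It read 10.24, 10.70 and 11.12 in controls, 11.49, 12.09 and 12.32 in CBP-deleted and 13.65, 13.23 and 13.45 in p300-deleted samples. Again no array of one group reached another group. The increase was 2.42-fold with CBP deleted (log2 1.28, SE 0.23, adjusted p = 0.0211) and 6.76-fold with p300 deleted (log2 2.76, SE 0.23, adjusted p = 0.000452), and the knockouts differed by 2.79-fold (log2 -1.48, SE 0.23, adjusted p = 0.00786). The last Igha probe set (1425763_x_at), whose p300-deleted mean was 13.74, had the same order, with 1.18 and 2.40 for the knockouts against control and -1.22 between them, all called. The 3 Igha probe sets read nearly one pattern, with a Pearson r of 0.993 to 0.998 over the 9 arrays. Igha passed against control in p300-deleted samples whichever array was left out. In CBP-deleted samples none of the 3 probe sets passed without CBP-deleted replicate 2, CBP-deleted replicate 3 or control replicate 1 (adjusted p 0.0571 to 0.103). Between the knockouts, 1421653_a_at did not pass when any p300-deleted array or CBP-deleted replicate 1 or 2 was left out (adjusted p 0.0747 to 0.105), and 1425763_x_at did not without CBP-deleted replicate 2 or p300-deleted replicate 1 (adjusted p 0.0593 and 0.0697).

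Ighm encodes the constant region of IgM, the first heavy chain class that a B cell makes, and was read by 11 probe sets that did not move alike. Where their probes lie is not given, so which transcripts each of them reads is uncertain. With p300 deleted the 2 brightest rose by log2 0.33, at the top of the scale, and 0.60. A set of 4 described below rose 8.44-fold to 13.2-fold, so no single fold stands for Ighm. Over the 36 pairs among the 9 of them above the bottom, Pearson r across the arrays ranged from 0.39 to 0.999. By their values they were sorted, after the fact, into bright probe sets with small differences, a set of 4 whose control SD exceeded 1, and single probe sets between.

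The brightest Ighm probe set (1427351_s_at) read 13.62, 13.73 and 13.72 in controls, 13.38, 13.40 and 13.54 in CBP-deleted and 14.06, 13.99 and 14.02 in p300-deleted samples. All CBP-deleted arrays were below, and all p300-deleted arrays above, every control array. The control and p300-deleted means lie at the top of the scale, so no fold is given between them (log2 0.33, SE 0.06, adjusted p = 0.0164). CBP-deleted samples were at least 1.19-fold below control (log2 -0.25, SE 0.06, adjusted p = 0.0431) and at least 1.49-fold below p300-deleted samples (log2 -0.58, SE 0.06, adjusted p = 0.00165).

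Probe set 1427329_a_at had the same order without reaching the top. Its values were 12.71, 12.80 and 12.73 in controls, 12.34, 12.19 and 12.49 in CBP-deleted and 13.45, 13.18 and 13.40 in p300-deleted samples, with no overlap among the groups. Ighm on this probe set fell 1.32-fold with CBP deleted (log2 -0.40, SE 0.09, adjusted p = 0.038) and rose 1.52-fold with p300 deleted (log2 0.60, SE 0.09, adjusted p = 0.00915). The knockouts differed 2.003-fold (log2 -1.002, SE 0.09, adjusted p = 0.00165). The lower level in CBP-deleted samples was not called for 1427329_a_at when any CBP-deleted array, p300-deleted replicate 3, or control replicate 1 or 2 was left out (adjusted p 0.0537 to 0.136). For 1427351_s_at it was called with only 1 array left out, control replicate 3, and was not called without any other (adjusted p 0.0623 to 0.162). Its p300-deleted call was lost without p300-deleted replicate 1, p300-deleted replicate 2 or control replicate 1 (adjusted p 0.0639 to 0.0701).

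**Figure D3:**
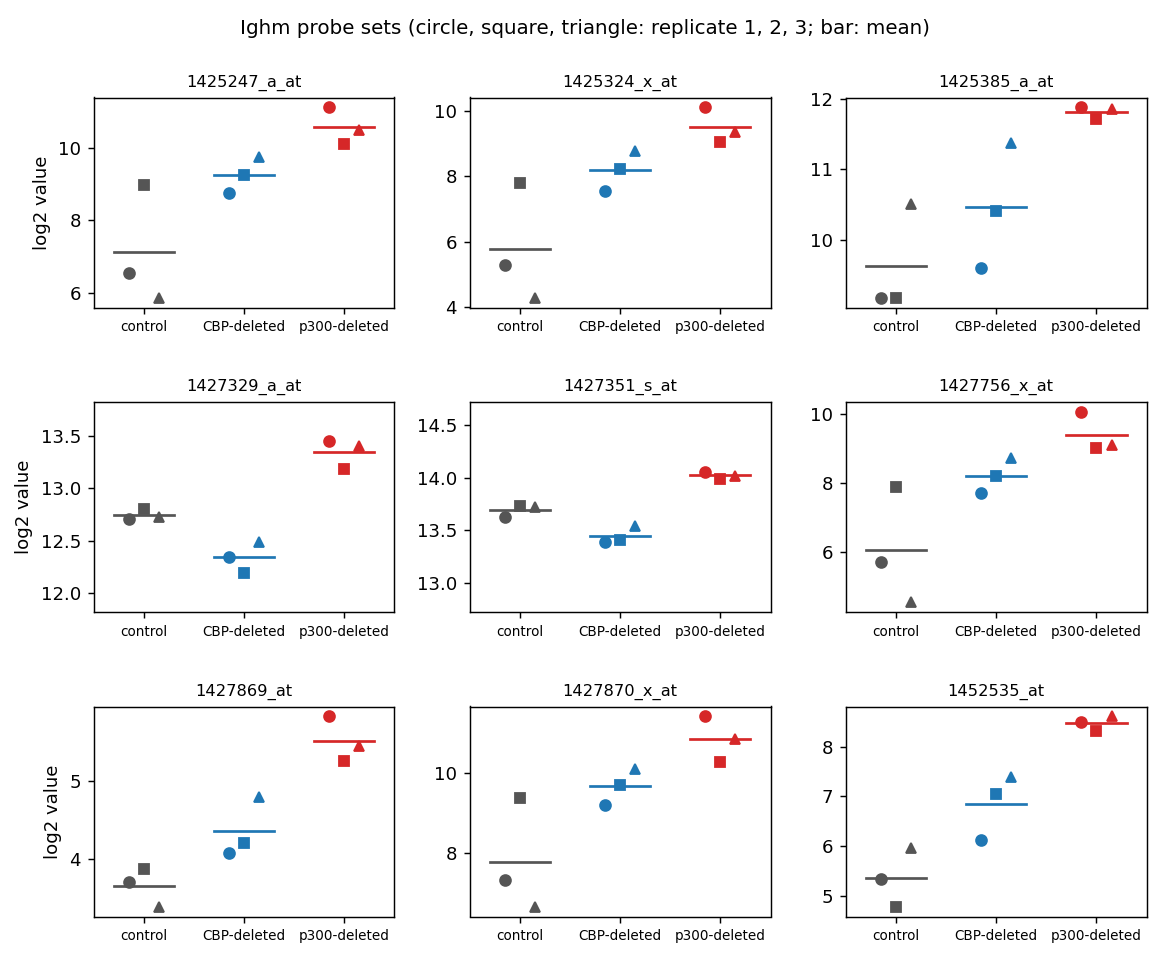
Log2 level of the 9 Ighm probe sets above the bottom of the scale; each point is 1 array and each bar the mean of 3 arrays of a group. Control replicate 2 stands above the other controls by 2.06 to 2.50 in 4 probe sets, and the p300-deleted mean is the highest in all 9.

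Of these 4 Ighm probe sets, 3 had the largest differences of the 30 against control in p300-deleted samples. The largest, 1425324_x_at, read 5.29, 7.79 and 4.28 in controls, 7.56, 8.21 and 8.78 in CBP-deleted and 10.11, 9.04 and 9.36 in p300-deleted samples. All p300-deleted arrays were above all others, while control replicate 2 lay among the CBP-deleted arrays and apart from the other controls. The p300-deleted mean was 13.2-fold higher than control (log2 3.72, SE 0.69, adjusted p = 0.0216). The difference of log2 2.40 with CBP deleted (SE 0.69) did not pass (adjusted p = 0.0918), nor did that between the knockouts (log2 -1.32, adjusted p = 0.39).

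The others of the 4 were 1425247_a_at, 1427756_x_at and 1427870_x_at, at 11.01-fold, 10.2-fold and 8.44-fold above control in p300-deleted samples (adjusted p = 0.0193, 0.0255 and 0.0196). Their readings ran together across arrays, with r from 0.994 to 0.999, and from 0.982 to 0.997 after each group mean was removed. They are therefore close to repeated readings of 1 signal. Control replicate 2 exceeded the next control by 2.44, 2.50, 2.16 and 2.06 in 1425247_a_at, 1425324_x_at, 1427756_x_at and 1427870_x_at. Without it, the p300-deleted differences were log2 4.39, 4.72, 4.27 and 3.88, or 20.9-fold, 26.3-fold, 19.3-fold and 14.7-fold, in the same order. Also without it, all 4 were called higher in CBP-deleted samples, at log2 3.06, 3.40, 3.09 and 2.69 (adjusted p 0.00355 to 0.00718), and 1425247_a_at and 1427870_x_at were called between the knockouts too (adjusted p = 0.026 and 0.0436). Without p300-deleted replicate 1, p300-deleted replicate 2 or control replicate 1, none of the 4 passed in p300-deleted samples (adjusted p 0.0679 to 0.0919).

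Of the other Ighm probe sets, 1452535_at read 5.32, 4.77 and 5.96 in controls, 6.12, 7.05 and 7.39 in CBP-deleted and 8.48, 8.32 and 8.61 in p300-deleted samples. The groups did not overlap. This was the Ighm probe set called in all 3 comparisons in the order seen for Igha: 2.83-fold up with CBP deleted (log2 1.50, SE 0.32, adjusted p = 0.0372), 8.70-fold up with p300 deleted (log2 3.12, SE 0.32, adjusted p = 0.00118) and 3.07-fold apart between the knockouts (log2 -1.62, SE 0.32, adjusted p = 0.0219). The p300-deleted call held in every alternative. The CBP-deleted call held only when CBP-deleted replicate 1 or control replicate 3 was the array left out, and was otherwise lost (adjusted p 0.0558 to 0.138). The call between the knockouts was lost without CBP-deleted replicate 1 or 2 or any p300-deleted array (adjusted p 0.0596 to 0.0813).

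Probe set 1427869_at read 3.70, 3.87 and 3.39 in controls, 4.08, 4.21 and 4.79 in CBP-deleted and 5.83, 5.25 and 5.45 in p300-deleted samples. No groups overlapped, and the controls were at the bottom. Its level was at least 3.21-fold higher with p300 deleted (log2 1.85, SE 0.21, adjusted p = 0.00227), and 2.22-fold lower in CBP-deleted than in p300-deleted samples (log2 -1.15, SE 0.21, adjusted p = 0.0154). The difference of 0.71 between CBP-deleted and control samples did not pass (adjusted p = 0.1). The call between the knockouts was lost without CBP-deleted replicate 1, CBP-deleted replicate 2 or p300-deleted replicate 1 (adjusted p 0.0627 to 0.0855). This probe set shares its sequence record with 1427870_x_at, whose control replicate 2 stood far from the other controls.

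Probe set 1425385_a_at read 9.18, 9.17 and 10.51 in controls, 9.59, 10.41 and 11.38 in CBP-deleted and 11.88, 11.71 and 11.85 in p300-deleted samples. Here control replicate 3, not 2, was the highest control, and CBP-deleted and control arrays overlapped. It rose 4.58-fold with p300 deleted (log2 2.20, SE 0.41, adjusted p = 0.0226); without any 1 of the p300-deleted arrays or control replicate 1 this did not pass (adjusted p 0.0549 to 0.0959). The CBP-deleted difference from control was log2 0.84 (SE 0.41, adjusted p = 0.304). The knockouts differed by -1.36 (adjusted p = 0.111), which passed without CBP-deleted replicate 3 or control replicate 3 (adjusted p = 0.0432 and 0.0409). The last Ighm probe sets, 1426196_at and 1451949_at, were at the bottom in all group means and called in no comparison.

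Ighg3 encodes the constant region of IgG3, a class made after class switching. Of its 4 probe sets, 3 were at the bottom in every group and none was called in any comparison. The one above it, 1427503_at, read 9.13, 9.22 and 9.64 in controls, 5.23, 5.70 and 9.29 in CBP-deleted and 11.61, 11.39 and 6.55 in p300-deleted samples. The controls lay together, while in each knockout 1 array, replicate 3, stood apart from the other 2, high in the CBP-deleted group and low in the p300-deleted group. The SDs were 0.27, 2.22 and 2.86 in control, CBP-deleted and p300-deleted samples. The differences were log2 -2.59 for CBP-deleted and 0.52 for p300-deleted samples against control (SE 1.26, adjusted p = 0.298 and 0.883). Between the knockouts it was -3.11 (adjusted p = 0.242), the lowest fitted difference of all 22626 probe sets in that comparison; without p300-deleted replicate 3 it was -4.76 and passed (adjusted p = 0.0336).

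Igk stands for the kappa light chain locus as a whole, and on 3 of its 4 probe sets the p300-deleted arrays lay above all others. Probe set 1425738_at read 7.69, 8.01 and 8.61 in controls, 8.32, 7.96 and 8.49 in CBP-deleted and 10.57, 9.75 and 10.48 in p300-deleted samples. The control and CBP-deleted arrays overlapped, and all p300-deleted arrays were above them. The level was 4.49-fold higher than control with p300 deleted (log2 2.17, SE 0.25, adjusted p = 0.00263), while the CBP-deleted difference was log2 0.16 (adjusted p = 0.791). CBP-deleted samples were 4.03-fold below p300-deleted samples (log2 -2.01, SE 0.25, adjusted p = 0.00397). These calls held in every alternative.

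The same order was seen for 1427757_at, with 5.39, 5.85 and 6.26 in controls, 5.78, 5.57 and 6.25 in CBP-deleted and 7.85, 7.01 and 7.84 in p300-deleted samples. It was 3.32-fold higher with p300 deleted (log2 1.73, SE 0.27, adjusted p = 0.0123) and 3.24-fold different between the knockouts (log2 -1.70, SE 0.27, adjusted p = 0.00872), which was lost without CBP-deleted replicate 2 (adjusted p = 0.0579). Probe set 1426178_at was at the bottom in controls and CBP-deleted samples (means 3.48 and 3.37) and read 5.07, 3.95 and 4.79 in p300-deleted samples, at least 1.74-fold above either (adjusted p = 0.0317 and 0.017). Both calls depended on single arrays: the one against control was lost in 6 and the one between the knockouts in 4 of the 9 leave-one-out fits (adjusted p 0.0505 to 0.092). Neither replicate 1 nor replicate 2 of the CBP-deleted group, nor replicate 1 or 3 of the p300-deleted group, could be left out for either call, and for the one against control neither could control replicate 1 or 2. The fourth, 1452557_a_at, read 6.48, 6.77 and 8.07 in controls, 7.43, 7.55 and 8.04 in CBP-deleted and 6.92, 8.20 and 7.27 in p300-deleted samples. All 3 groups overlapped on it, and no comparison passed (adjusted p 0.486 to 0.864).

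The kappa variable segments encode the part of the light chain that meets antigen. Igkv4-72 (1426201_at) read 6.90, 7.12 and 6.41 in controls, 6.06, 6.32 and 7.25 in CBP-deleted and 8.86, 8.04 and 8.10 in p300-deleted samples. Only the p300-deleted arrays stood apart. It rose 2.88-fold with p300 deleted (log2 1.52, SE 0.31, adjusted p = 0.0303) and was 3.46-fold lower in CBP-deleted than in p300-deleted samples (log2 -1.79, SE 0.31, adjusted p = 0.012). The first of these was lost without CBP-deleted replicate 2, p300-deleted replicate 1, p300-deleted replicate 2 or control replicate 1 (adjusted p 0.0539 to 0.098), and the other without CBP-deleted replicate 2 (adjusted p = 0.0694).

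Igkv6-14 (1427860_at) read 8.33, 8.43 and 8.58 in controls, 6.84, 7.83 and 8.31 in CBP-deleted and 10.10, 9.35 and 9.68 in p300-deleted samples. CBP-deleted arrays were all below, and p300-deleted arrays all above, the controls. The knockouts differed 4.14-fold (log2 -2.05, SE 0.30, adjusted p = 0.00649), a call kept in every alternative. Neither knockout passed against control, at log2 -0.79 with CBP deleted (adjusted p = 0.185) and 1.26 with p300 deleted (adjusted p = 0.0541); the latter passed without CBP-deleted replicate 1 or 3 (adjusted p = 0.0151 and 0.0334).

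Igkv4-68 (1427857_x_at) gave a like result, at 6.25, 6.16 and 6.10 in controls, 4.70, 6.04 and 6.23 in CBP-deleted and 7.98, 7.32 and 7.37 in p300-deleted samples. CBP-deleted replicate 1 was far below the other arrays of its group. The 3.73-fold difference between the knockouts passed (log2 -1.90, SE 0.33, adjusted p = 0.0121), though not without p300-deleted replicate 1 (adjusted p = 0.0559). Against control, the p300-deleted difference of 1.39 narrowly missed (SE 0.33, adjusted p = 0.0522) and passed without CBP-deleted replicate 1 or 3 (adjusted p = 0.00624 and 0.047).

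In Igk-V21 (1427858_at) the CBP-deleted mean lay between the others, as in 1 Igkv19-93 probe set and unlike Igkv4-72, Igkv6-14 and Igkv4-68. Igk-V21 read 2.96, 3.39 and 4.13 in controls, 4.03, 4.71 and 5.29 in CBP-deleted and 4.66, 6.26 and 5.68 in p300-deleted samples. The p300-deleted arrays were above all controls, and the CBP-deleted arrays overlapped both groups. It was at least 3.08-fold higher with p300 deleted (log2 2.04, SE 0.42, adjusted p = 0.0322), against log2 1.18 with CBP deleted (SE 0.42, adjusted p = 0.154). The p300-deleted call was lost without CBP-deleted replicate 2, p300-deleted replicate 2 or 3, or control replicate 1 or 2 (adjusted p 0.0597 to 0.136).

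Neither Igkv19-93 probe set was called on its own in any comparison. Its probe set 1427855_at read 4.64, 4.96 and 5.99 in controls, 5.28, 5.74 and 6.13 in CBP-deleted and 5.65, 6.91 and 6.80 in p300-deleted samples, all overlapping. The p300-deleted difference from control was log2 1.26 (adjusted p = 0.115), and 1.65 without control replicate 3, which passed (adjusted p = 0.0253), as did 1.59 with array weights (adjusted p = 0.0253). With the mean of both probe sets in place of each, Igkv19-93 was higher with p300 deleted (log2 1.14, adjusted p = 0.0234) and lower in CBP-deleted than in p300-deleted samples (log2 -0.90, adjusted p = 0.0408). The other, 1427856_a_at, was at the bottom in all group means, although p300-deleted replicate 1 read 4.93. That array was the highest of its group there but the lowest on 1427855_at, and the mean evens out such opposite readings. The SE was 0.22 for the mean, against 0.39 for 1427855_at and 0.40 for 1427856_a_at. Both share a sequence record with the Igkv4-68 probe set, so these 3 do not stand for separate genes with any certainty.

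Iglv1 is a variable gene of the lambda light chain, which a minority of mouse B cells use. Its probe set 1430523_s_at read 10.72, 10.98 and 10.19 in controls, 10.50, 10.34 and 11.07 in CBP-deleted and 12.40, 12.21 and 11.70 in p300-deleted samples. Every p300-deleted array was above every other array, and the control and CBP-deleted means were 10.63 and 10.64. It rose 2.77-fold with p300 deleted (log2 1.47, SE 0.24, adjusted p = 0.0134) and was 2.76-fold lower in CBP-deleted than in p300-deleted samples (log2 -1.47, SE 0.24, adjusted p = 0.0091). These calls were lost without p300-deleted replicate 1 or 2 (adjusted p = 0.0736 and 0.0521) and without CBP-deleted replicate 2 (adjusted p = 0.0579), respectively. Its second probe set, 1427292_at, read 4.63, 5.80 and 5.08 in controls, 4.32, 4.13 and 4.78 in CBP-deleted and 5.20, 5.21 and 5.55 in p300-deleted samples. None of its differences passed; that between the knockouts was -0.91 (adjusted p = 0.095) and passed without control replicate 2 (adjusted p = 0.0221).

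By class, then, both heavy chain and light chain readings rose with p300 deleted, though no Ighg3 probe set was called. In CBP-deleted samples the 4 probe sets that rose were all heavy chain, of Igha and Ighm, and again none of Ighg3 was called. None of the 12 light chain probe sets was called there in either direction, a count near the 2.5% of all probe sets. Igk-V21, a light chain entry, was at log2 1.18 in that comparison without passing. Whether the 2 kinds of chain differ in their response to CBP loss was not tested. Call by call, 4 of the 30 probe sets were up in both knockouts against control and lower in CBP-deleted than in p300-deleted samples, 2 were down with CBP and up with p300 deleted, 6 were up with p300 deleted and different between the knockouts, and 6 were up with p300 deleted alone. A further 2 were called between the knockouts only, and 10 were called nowhere. The comparisons with control share the same 3 control arrays.

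Immunoglobulin values also varied together within groups. Over the 24 probe sets above the bottom, CBP-deleted replicate 3 was the highest array of its group in 24, against 34.9% of all probe sets, and CBP-deleted replicate 1 the lowest in 19, against 35.1%. Among p300-deleted arrays, replicate 1 was highest in 19 (31.9% of all probe sets) and replicate 2 lowest in 18 (31.5%). Of the controls, replicate 1 was lowest in 13, against 28.8% of all probe sets, and highest in 1 (28.6%), while replicate 2 was highest in 11 (38.5%) and replicate 3 in 12 (32.9%). The median SD over the 24 probe sets was 0.45, 0.42 and 0.41 in control, CBP-deleted and p300-deleted samples, against 0.16, 0.11 and 0.12 over all probe sets. Probe sets that rise and fall on the same arrays are not independent readings of a group.

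Most genes of a plasma cell list were higher in p300-deleted samples as well. Of 12 measured genes in a list of 13, 5 rose against control and none was called lower. The median was log2 0.76, against -0.02 over all 12393 genes, of which 172 rose and 178 fell. The fitted difference was positive in 10 of the 12 and negative in 2, the lowest at log2 -0.53. Jchain, which links IgA and IgM into polymers, read 11.56, 12.12 and 11.94 in controls, 11.56, 11.70 and 12.15 in CBP-deleted and 13.04, 12.93 and 12.74 in p300-deleted samples. All p300-deleted arrays stood above the others, which overlapped. Jchain rose 2.04-fold (log2 1.03, SE 0.16, adjusted p = 0.0124). Tnfrsf17, the receptor BCMA that sustains plasma cells, rose by log2 1.79 (SE 0.21, adjusted p = 0.00302), Xbp1, a transcription factor of the secretory programme, by 0.73 (SE 0.11, adjusted p = 0.0123), and Derl3, of degradation at the endoplasmic reticulum, by 1.26 (SE 0.21, adjusted p = 0.0147). The fifth was Ell2, an elongation factor, at 0.87 (SE 0.18, adjusted p = 0.0312). In CBP-deleted samples 0 of the 12 changed against control (median 0.02), where 154 of 12393 genes rose and 212 fell. Of the 12, 5 were lower in CBP-deleted than in p300-deleted samples (median -0.48), where 197 of 12393 genes were. The list's mean level ranged over 7.30 to 7.47 in controls, 7.33 to 7.60 in CBP-deleted and 7.82 to 8.27 in p300-deleted arrays. Its part in the immunoglobulin differences was not tested.

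B cell genes did not rise with the immunoglobulins. Of 13 measured genes in a list of 15, none rose in either knockout. Among all 12393 genes, 154 rose with CBP deleted and 172 with p300 deleted. With CBP deleted 4 of the 13 fell (median log2 -0.62), where 212 of 12393 genes fell: the surface co-receptor Cd72 (log2 -1.21, SE 0.13, adjusted p = 0.00229), the B cell receptor signalling chains Cd79a (-1.03, adjusted p = 0.0436) and Cd79b (-0.84, adjusted p = 0.0367), and the transcription factor Spib (-0.96, adjusted p = 0.0369). With p300 deleted 1 of the 13, Spib, fell (log2 -0.97, adjusted p = 0.034), where 178 of 12393 genes did, and the list's median was -0.22. Between the knockouts 1 of the 13, Cd72, was lower in CBP-deleted samples (log2 -0.79, adjusted p = 0.0101; median -0.29), where 197 of 12393 genes were. Pax5, Ebf1, Cr2 and Fcer2a were at the bottom on the group means. The list's mean level was 5.80 to 6.03 in controls, 5.18 to 5.51 in CBP-deleted and 5.42 to 5.98 in p300-deleted arrays. CBP-deleted replicates thus had less B cell signal than controls while Igha read higher and the 2 brightest Ighm probe sets lower; the part of B cells in this was not tested.

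Among genes that recombine and edit immunoglobulin loci, 12 of a list of 16 were measured. With CBP deleted 1 fell (median log2 0.03), where 212 of 12393 genes did: Dntt, the polymerase that adds untemplated bases at the joints (log2 -0.58, adjusted p = 0.0354). With p300 deleted 2 fell (median -0.07), where 178 of 12393 did: Ung, which removes uracil from DNA during class switching (-0.71, adjusted p = 0.0102), and the exonuclease gene Exo1 (-0.69, adjusted p = 0.0329). Between the knockouts Ung and Exo1 were called higher in CBP-deleted samples and Dntt lower, where 309 of 12393 genes were higher and 197 lower. Rag1 and Rag2, which cut the segments, were at the bottom.

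Receptors and transporters of antibody were not called. Of all 12393 genes, 154 rose and 212 fell with CBP deleted, and 172 rose and 178 fell with p300 deleted. None of 11 measured genes in a list of 12 passed in any comparison, a count near this share. The medians were log2 0.08, 0.07 and -0.12. The largest value against control was that of Fcer1a, the IgE receptor chain of mast cells and basophils, at 1.66 with p300 deleted (adjusted p = 0.0573), followed by Fcgr3 at 0.49 (adjusted p = 0.594).

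**Figure D4:**
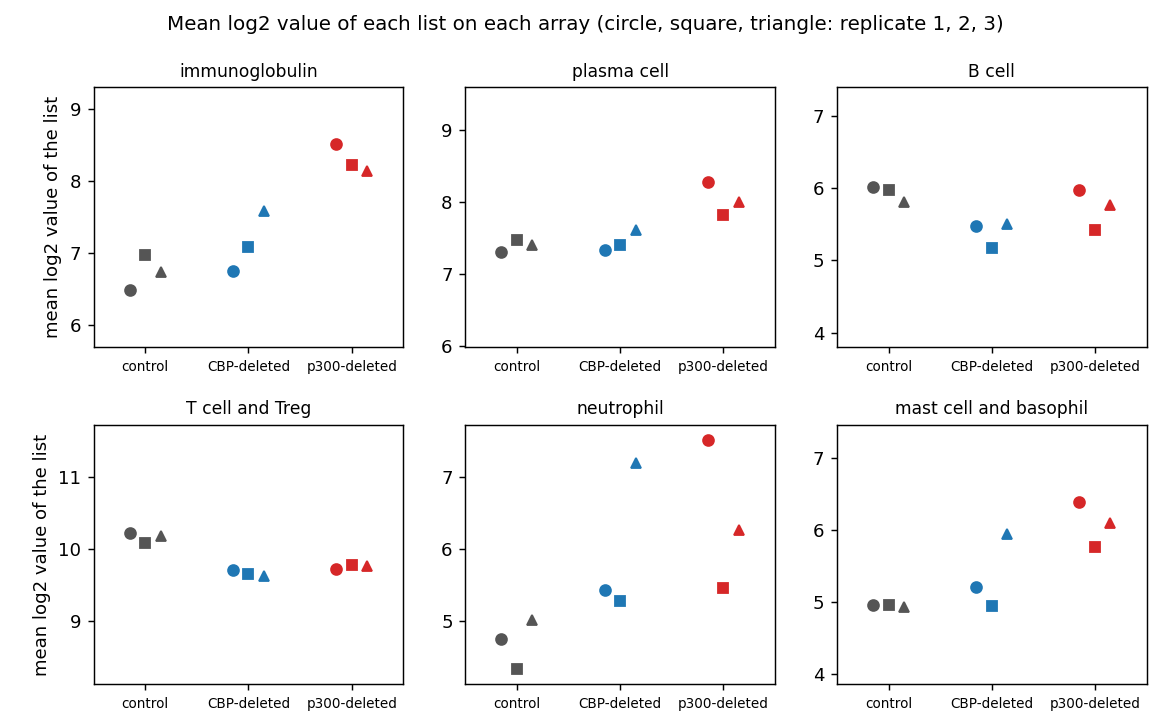
Mean log2 level of the immunoglobulin probe sets and of 5 marker lists on each array, with 1 point per array and grey for control, blue for CBP-deleted and red for p300-deleted. Immunoglobulin means run from 8.13 to 8.51 in p300-deleted arrays and from 6.49 to 7.58 in the others. Plasma cell means are also highest on the p300-deleted arrays, without overlap. Mast cell and neutrophil medians are highest in that group too, but its arrays overlap the CBP-deleted arrays. B cell means are not highest there. T cell and Treg means are 9.62 to 9.77 in the knockouts and 10.09 to 10.22 in controls. That list includes Foxp3, at log2 -6.73 with CBP and -6.65 with p300 deleted, while its median differences are 0.04 and 0.17.

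Markers of other cells moved with the groups too. Of all 12393 genes, 172 rose and 178 fell with p300 deleted, and 154 rose and 212 fell with CBP deleted. The neutrophil list, with 9 of 10 genes measured, had a median of log2 1.64 with p300 deleted, where Ctsg rose by 1.64 (adjusted p = 0.0476) and Camp by 2.13 (adjusted p = 0.0488), and 1.20 with CBP deleted, where none passed. Its mean level was 4.33 to 5.01 in controls, 5.27 to 7.19 in CBP-deleted and 5.46 to 7.51 in p300-deleted arrays. It was highest on CBP-deleted replicate 3 and p300-deleted replicate 1, the arrays that were also most often highest for immunoglobulins. The same arrays were highest in their groups for the plasma cell, B cell (5.51 and 5.98), mast cell, CD8 T and NK, macrophage and Fc receptor lists. For the T cell and Treg list both were lowest in their groups. The recombination list was highest on the first and lowest on the second. Mast cell and basophil genes, all 7 measured, had medians of 0.27 and 1.05; Mcpt8, Cma1 and Tpsb2 rose with p300 deleted (log2 2.44, 1.65 and 1.04; adjusted p = 0.0191, 0.0348 and 0.044), and their mean was 4.93 to 4.96, 4.95 to 5.94 and 5.76 to 6.39. Of 7 CD8 T and NK genes, 2 rose with CBP deleted, Cd8b1 by 0.74 and Gzmk by 1.02 (adjusted p = 0.0155 and 0.0167), with list means of 6.78 to 6.91, 6.80 to 7.18 and 7.11 to 7.27. None of 6 macrophage and dendritic genes passed in any comparison, the largest being Csf1r and Lyz2 at log2 1.36 and 1.29 with p300 deleted (adjusted p = 0.21 and 0.31), and the means were 4.95 to 5.68, 5.12 to 6.02 and 5.56 to 6.57. For all these lists, their part in the immunoglobulin differences was not tested. T cell and Treg genes, 11 of 11 measured, had medians of 0.04 and 0.17; apart from Foxp3 they included Ctla4 up with CBP deleted (log2 0.58, adjusted p = 0.025) and Cd4 and Cd3g up with p300 deleted (0.66 and 0.28; adjusted p = 0.0314 and 0.032).

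Genes whose levels ran most like those of the antibody chains were ranked by Pearson r over the 9 arrays, among 12371 genes without an immunoglobulin symbol. For the brightest Igha probe set the first 5 were Tmbim4 (r = 0.985), Psme3ip1 (0.977), Stx7 (0.976), Cyb5r3 (0.961) and Cyp4v3 (0.956). After group means were removed their r was 0.89, 0.86, 0.81, 0.86 and 0.49. For the brightest Ighm probe set they were Slc16a11 (0.963), Slamf9 (0.958), Cacna1h (0.958), Bhlha15 (0.949) and Klf9 (0.941), with 0.57, 0.92, 0.82, 0.20 and -0.32 after group means were removed. The likeness of Bhlha15 and Klf9 to Ighm thus rests mainly on the group means. These values describe the arrays at hand, which share groups, and the genes were picked as the highest of many.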

How the data were processed

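Treg RNA was amplified from 100 ng and hybridised to Affymetrix 3' arrays, per the labels' protocols. The authors deposited log2 values, 1 per probe set and array, summarised with RMA per the submitters' processing notes; no version, background or annotation settings are given in the sources used here. The values were used as deposited. Of 22690 probe sets, 64 controls were set aside; 20380 of the rest carry 1 gene symbol, 691 several and 1555 are unnamed. RefSeq (GRCm38.p6) served for gene names, with 29 gene identifiers unmatched.

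All 22626 probe sets were fitted with limma 3.58.1 in R 4.3.3, with 1 mean per group over 9 arrays and a variance trend, and p-values (two-sided) were adjusted by Benjamini-Hochberg over all of them at 0.05. An SE is that of the fit, an SD that of 3 arrays. The number of arrays limits the precision. For other lists the probe set with the highest mean represented a gene. All immunoglobulin probe sets are named, plus sample checks and the 5 genes most like Igha and Ighm. Up to 4 called genes per list with the lowest adjusted p are also named (else 2 as values). Ell2, Sdc1 and the genes at the bottom of the scale were named after their values were seen. Members and lists were chosen with earlier results of these data known. Alternatives were the probe set choice, a filter on dim probe sets, scaling, the variance model, the arrays fitted, an 18S covariate and a replicate block. The procedure was run on simulated data with independent noise in each probe set. That run does not show how counts of probe sets that vary together behave. Other immunoglobulin symbols were counted but not described here.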

Additional observations from a re-analysis of the deposited data

Results flagged for a closer look

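In 3 immunoglobulin probe sets all CBP-deleted arrays were below, and all p300-deleted arrays above, the 3 controls, and the difference between the knockouts passed the limma test. It was log2 -1.002 for Ighm on 1427329_a_at (adjusted p = 0.00165), -0.58 for Ighm on 1427351_s_at (adjusted p = 0.00165) and -2.05 for Igkv6-14 on 1427860_at (adjusted p = 0.00649). How many of all probe sets have this pattern was not counted. Taken singly, all CBP-deleted arrays were below the controls in 12.6% of all probe sets and in 3 of the 30, a count near this share. All p300-deleted arrays were above the controls in 9.26% of all probe sets and in 24 of the 30. No group had 4 or more arrays, so single arrays were not screened as outliers.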

How the results depend on the processing

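The number of called probe sets was 6 with CBP and 18 with p300 deleted, each against control, and 14 between the knockouts. With 1 probe set per gene it was 2, 8 and 7 of 10, and with the mean of a gene's probe sets 2, 6 and 8 of 10 genes, so these counts have another denominator. The first count was 3 without the variance trend, 11 with array weights, 0 with only the 6 arrays compared and 3 with 18S as a covariate; the second was 11 with robust moderation. Leaving out 1 array gave 0 to 7, 9 to 20 and 6 to 17. With the replicate block the counts were 4, 17 and 15. The correlations of same-numbered deviations ran from -0.22 to 0.26. With 3 arrays per group they cannot show whether the numbers pair the samples. All 38 called differences kept their sign in all 727 alternatives, and 598 of these were also called; where groups do not overlap, leaving out an array cannot turn the sign. Of the 974 alternatives for the other 52 differences, 30 had the other sign. Among CBP-deleted against control these were, with 18S, Igk 1426178_at (0.011), Ighg3 1426198_at (-0.019), Igk 1427757_at (-0.0059), Igkv19-93 1427856_a_at (0.042) and Ighm 1451949_at (-0.0055); with quantile scaling Igk 1427757_at (-0.010), Igkv19-93 1427856_a_at (0.0014) and Iglv1 1430523_s_at (-0.013); with the median subtracted Ighm 1426196_at (-0.0072) and Iglv1 1430523_s_at (-0.012); and with array weights Igkv19-93 1427856_a_at (0.13) and Iglv1 1430523_s_at (-0.12). For p300-deleted against control, with 18S, they were Ighg3 1427503_at (-0.20) and Igk 1452557_a_at (-0.50). With 1 array left out the range spanned 0 for CBP-deleted against control in Igk 1425738_at (-0.050 to 0.41), Ighm 1426196_at (-0.058 to 0.084), Ighg3 1426198_at (-0.031 to 0.10), Igk 1427757_at (-0.19 to 0.25), Igkv19-93 1427856_a_at (-0.17 to 0.16) and Iglv1 1430523_s_at (-0.22 to 0.18), for p300-deleted against control in Iglv1 1427292_at (-0.12 to 0.46), Ighg3 1427503_at (-0.36 to 2.17) and Igk 1452557_a_at (-0.01 to 0.84), and between the knockouts in Igk 1452557_a_at (-0.062 to 0.58). The cause of these changes was not tested. Signal near the bottom of the scale limits the 6 probe sets there, and the top compresses differences of Igha and Ighm.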

Other observations

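The array holds 25 more probe sets with immunoglobulin symbols outside the 10 described. With p300 deleted 11 rose and 0 fell against control (median log2 0.79, limma, adjusted p below 0.05), where 1.45% of all probe sets rose and 1.17% fell. With CBP deleted 1 rose and 1 fell (median -0.03; 1.26% and 1.25% of all), and between the knockouts 13 were lower in CBP-deleted samples and 0 higher (median -0.73; 1.25% and 2.1% of all).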
